A study of Mus musculus with 2 samples.

Results

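*Cd209a*-positive dendritic cells were the largest of the dendritic cell classes defined here among the tumor-infiltrating immune cells (TIIs) of B16-OVA tumors, and 157 of the 5022 sequenced cells belonged to them. A cell was a member when it had at least 3 unique molecular identifiers (UMIs, 1 per captured RNA molecule) of *Cd209a* and no more than low counts of marker genes of cDC1s, mature dendritic cells, plasmacytoid dendritic cells, macrophages and T cells. The study compared mice with the wild-type monoamine oxidase A gene (*Maoa* WT) with mice carrying the hypomorphic 129S-*Maoa* tm1Shih/J allele on a C57BL/6J background (*Maoa* KO), in all cells of the body. Both groups were challenged subcutaneously with B16-OVA, a mouse melanoma line expressing chicken ovalbumin, and were 8 to 12 weeks old and female according to the methods. At day 14 the cells of 10 tumors were combined for each genotype, living CD45.2+ cells were sorted, and 10000 cells were loaded for 1 droplet 3′ library per genotype. Since each genotype was 1 library of pooled animals, differences between the genotypes have no replicate check and no test was possible. All intervals below are exact 95% intervals that cover counting error only.

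Dendritic cells take up antigen in tissue, digest it, and present its peptides on MHC molecules to T cells. The conventional type 1 subset (cDC1) is known for presenting antigen on MHC class I to CD8 T cells, and the type 2 subset (cDC2) mainly for presenting on MHC class II to CD4 T cells. *Cd209a* encodes a mouse homolog of human DC-SIGN, a C-type lectin that binds sugars on microbes and cells, and in mice it marks cDC2s and a fraction of monocyte-derived cells in inflamed tissue. *Clec10a* and *Mgl2* (CD301b) encode related lectins that bind galactose and N-acetylgalactosamine.

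The library labelled WT held 2392 cells with a median of 9887.5 UMIs per cell, and the library labelled KO 2630 cells with a median of 6945.5. *Maoa* (chromosome X, 16619698 to 16687818) did not bear out these labels: it had 7 UMIs in the library labelled WT and 15 in the library labelled KO, with 1 UMI in the members of each. Whether the counted 3′ end lies within the altered part of the gene is not given in the sources used here, so each library goes by its label below. They shared 13 cell barcodes, none of them among the members. UMIs of Y-linked genes occurred in 30 of 34 members labelled WT and 75 of 123 labelled KO, and *Xist* had 0 UMIs in members of both, which goes against female mice. UMIs of *S100a8* and *S100a9*, abundant neutrophil transcripts, occurred in 25 of 34 members labelled WT and in 6 of 123 labelled KO. Depth among the members was alike, at a median of 11222.5 UMIs in 34 members labelled WT (range 7416 to 23273) and 11494 in 123 labelled KO (range 3142 to 28618), or 413461 and 1489015 UMIs in all. The medians of detected genes were 2641 and 2658, and those of mitochondrial UMIs 1.25% and 1.33%. A level below is the UMIs of a gene per 1000000 UMIs of a class in a library (CPM), and since the libraries count 3′ ends, gene length does not enter it.

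The genes that chose the members are a description and not a finding. *Cd209a* (chromosome 8, 3743397 to 3748984 on the minus strand of GRCm38) had a median of 9 UMIs per member in the library labelled WT and 17 in the library labelled KO, with maxima of 69 and 98. Of the cells with at least 3 *Cd209a* UMIs, 65 labelled WT and 183 labelled KO, the limit on *Cd3* transcripts removed 25 and 49, the limit on *C1q* transcripts 3 and 5, *Siglech* 2 and 7, and *Xcr1* with *Clec9a* 2 and 2. The 8 members just inside the threshold, at 3 *Cd209a* UMIs, held *Clec10a* at 151 CPM, *Mgl2* at 363 CPM, *H2-Aa* at 11509 CPM and *Lyz2* at 665 CPM. The 16 cells just outside, at 2 UMIs and within every other limit, held the same genes at 230, 133, 7710 and 10041 CPM. The 4 members at 5 UMIs held *Lyz2*, a monocyte gene, at 18959 CPM and *H2-Aa*, a class II gene, at 6907 CPM, so the levels did not follow the *Cd209a* count in 1 direction.

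The markers were given with the class and cannot test its label, so their levels are a description. *Clec10a* (chromosome 11, 70156197 to 70170834) stood at 447 CPM in members labelled WT and 581 CPM in those labelled KO, against at most 62.3 CPM in macrophages and less elsewhere. *Mgl2* (chromosome 11, 70130329 to 70137550) stood at 164 and 559 CPM, against at most 81.8 CPM in macrophages and 14.7 CPM in monocytes. *H2-DMb2*, a chain of the chaperone that loads peptides on class II, stood at 447 and 400 CPM, which is above the 210 and 175 CPM of cDC1s but near the 266 and 361 CPM of mature dendritic cells. *Ifitm1*, an interferon-induced membrane protein gene, stood at 2578 and 1740 CPM, and in no other dendritic cell class above 369 CPM. *H2-DMb2* is thus shared with the other dendritic cells, whereas summed levels of the lectins and *Ifitm1* were above theirs in both libraries. Not every member held these genes alike. The median member held *Mgl2* at 0 CPM labelled WT and 80.8 CPM labelled KO, and *Ifitm1* at 1204 and 233 CPM.

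General dendritic cell genes were present. *Flt3*, the receptor for the dendritic cell growth factor FLT3L, stood at 82.2 and 44.3 CPM (WT and KO labels), against 1.68 and 6.14 CPM in monocytes. *Zbtb46*, a transcription factor of conventional dendritic cells, stood at 14.5 and 21.5 CPM against 0.839 and 0.723 CPM in monocytes. *Cd74*, the class II invariant chain, reached 31703 and 32676 CPM, and *H2-Ab1*, a class II chain, 13965 and 13758 CPM. Regulators tied to cDC2s were found as well. *Irf4*, at 16.9 and 20.8 CPM, had 0 UMIs in cDC1s of both libraries, and *Klf4* stood at 172 and 97.4 CPM. Several monocyte genes were below their level in monocytes, with *Cd14* at 26.6 and 38.3 CPM against 887 and 446 CPM in *Ly6c2* monocytes, and *Vcan* at 4.84 and 5.37 CPM against 153 and 105 CPM. Others were not scarce: *Lyz2* stood at 1197 and 2646 CPM in members against 17232 and 25053 CPM in monocytes, *Ly6c2* at 542 and 198 CPM, and the 18 monocyte genes summed to 7074 and 7259 CPM.

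**Figure D1:**
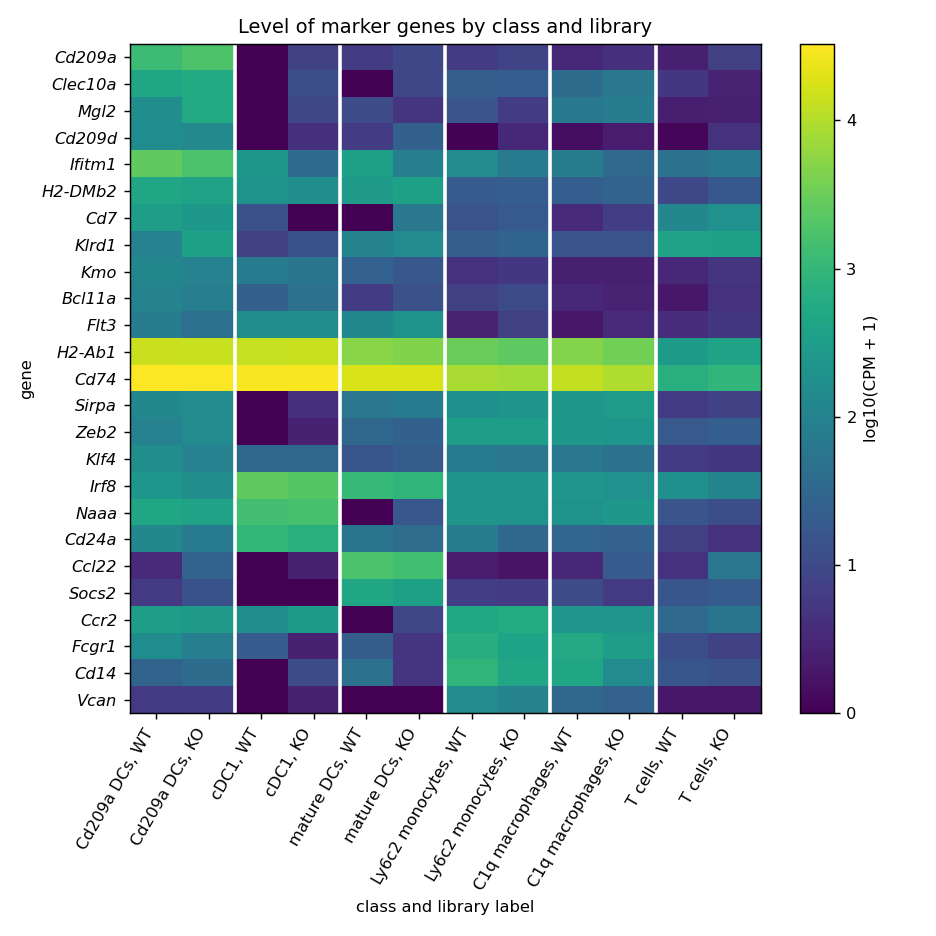
Level of 25 marker genes (vertical axis) in 6 cell classes of each library (horizontal axis), as log10 of CPM plus 1 in color. The *Cd209a* dendritic cells stand out by *Cd209a*, *Clec10a*, *Mgl2*, *Cd209d* and *Ifitm1*. They share *Cd7* with the T cells and *H2-Ab1* and *Cd74* with the cDC1s, and hold little of *Ccl22*, *Cd14* and *Vcan*.

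Genes of other cell types were counted in the members as well. Of 17 macrophage genes, 15 had UMIs in members labelled WT and 16 in members labelled KO, in every member of both, their sum ran from 234 to 1776 CPM per member in the former and 70.5 to 3551 CPM in the latter, and *Mertk* was at 0 in both. Genes of the other dendritic cells were found too. Of 15 cDC1 genes, 14 and 14 had UMIs, in 33 of 34 and 121 of 123 members, at up to 4018 and 6068 CPM in a member. *Naaa* and *Irf8* gave most of these UMIs, and *Xcr1* had 1 and 0. Of 11 plasmacytoid dendritic cell genes, 10 and 10 had UMIs, in 34 of 34 and 117 of 123 members, at up to 4180 and 5509 CPM. *Bst2* gave most of these UMIs, and *Siglech* had 1 and 4. Of 15 genes of mature dendritic cells, 11 and 13 had UMIs, in 34 of 34 and 118 of 123 members, at up to 1655 and 6667 CPM. The rule set limits on *Xcr1*, *Clec9a*, *Siglech*, *Ccr7* and *Fscn1*. Of 11 T cell genes in the table, 10 and 11 had UMIs, in 28 of 34 and 82 of 123 members, with at most 565 and 631 CPM in a member. Of 9 natural killer cell genes, 6 and 9 had UMIs, and *Ncr1* had 0 and 1. Of 6 B cell genes, 1 and 3 had UMIs, with *Ms4a1* and *Pax5* at 0 in both. Of 9 neutrophil genes, 6 and 7 had UMIs, in 27 of 34 and 22 of 123 members, with a median of 122 CPM labelled WT and 0 labelled KO. Of 10 melanoma genes, 6 and 7 had UMIs, in 12 of 34 and 32 of 123 members and at up to 338 and 597 CPM in a member, with *Tyr* and *Sox10* at 0. Of 4 Langerhans cell genes, 2 and 2 had UMIs, in 3 members of each library, with *Cd207* at 0. The part of such RNA in the results was not tested. UMIs of 5 lymphocyte genes (*Cd3d*, *Cd3e*, *Cd3g*, *Cd79a* and *Ncr1*) occurred in 24 of 34 members labelled WT (70.6%, interval 52.5 to 84.9) and 62 of 123 labelled KO (50.4%, 41.2 to 59.5), with at most 2 and 3 UMIs in a member. No doublet caller was run, and the main ratios between the libraries that changed their side of 2-fold or their sign without these cells are given both ways below.

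Members made up 34 of 2392 cells in the library labelled WT (1.42%, interval 0.986 to 1.98) and 123 of the 2630 cells labelled KO (4.68%, 3.90 to 5.55), which is 3.29 times the share. Of the cells of the 3 dendritic cell classes they were 59.6% (45.8 to 72.4) and 67.6% (60.3 to 74.3), which overlap. Of 5 myeloid classes, which add *Ly6c2* monocytes and *C1q* macrophages, they were 6.15% (4.30 to 8.49) and 17.8% (15.02 to 20.9). The other dendritic cells had the same order, with cDC1s at 0.376% and 1.37% of all cells. Mature dendritic cells stood at 0.585% (0.320 to 0.980) and 0.875% (0.555 to 1.31), which overlap. Monocytes stood at 9.57% (8.42 to 10.8) and 11.9% (10.7 to 13.2), and macrophages had the opposite order, at 11.2% and 7.49%. After every cell was thinned to 3700 UMIs the member shares were 1.20% (28 of 2343) and 4.92% (110 of 2237), and without members holding a UMI of the 5 lymphocyte genes they were 0.418% and 2.32%. Shares of a sorted and loaded suspension depend on how much of every other cell type it held, and 1 pool per genotype gives no spread between tumors.

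**Figure D2:**
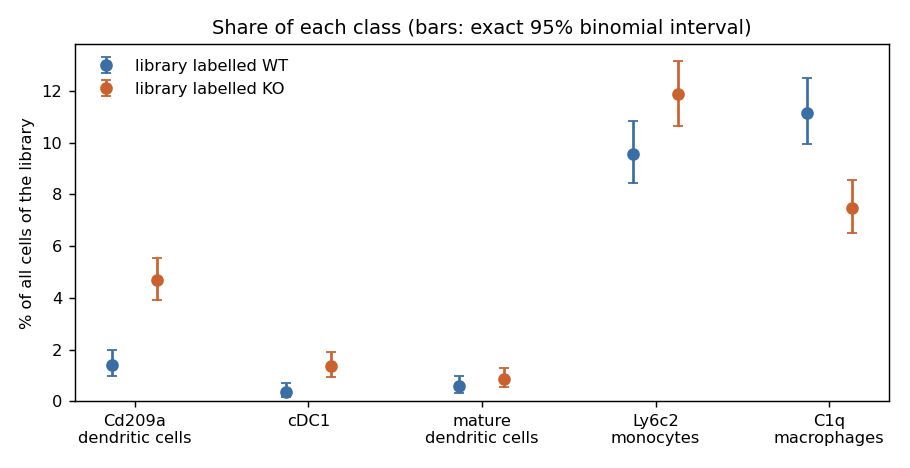
Share of all cells of each library (vertical axis, percent) for 5 myeloid classes, with points for the libraries labelled WT and KO and bars for the exact 95% binomial interval. The *Cd209a* dendritic cells lie at 1.42% and 4.68% without overlap of the bars, and the macrophages lie in the opposite order.

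Against cDC1s, 221 of 2912 tested genes (7.59%) were at least 2-fold higher in the members in both libraries, and 71 (2.44%) at least 2-fold lower. A gene counted as tested here and below when it had at least 100 UMIs. *Sirpa*, an inhibitory receptor gene whose product binds CD47 and which marks cDC2s, stood at 128 and 150 CPM in members and at 0 and 3.24 CPM in cDC1s. The transcription factor gene *Zeb2*, at 99.2 and 152 CPM, stood at 0 and 1.62 CPM in cDC1s, and the chemokine receptor gene *Ccr1*, at 118 and 84.0 CPM, had 0 UMIs there, so that it was at least 6.40-fold and 17.3-fold higher. *AA467197* was at least 14.1-fold and 25.3-fold higher, *Sirpb1c* at least 5.23-fold and 22.6-fold. *Clec10a*, *Mgl2*, *Cd209d*, *Tmem176b* and the chemokine gene *Ccl17* complete the 10 leading genes. The lower side held the cDC1 factor *Irf8*, at 230 and 167 CPM in members against 2611 and 2121 CPM in cDC1s. *Itgae* (CD103) was lower by a log2 ratio of -2.71 and -4.22, *Cd24a* by -3.02 and -3.24, *Wdfy4*, needed for cross-presentation, by -2.61 and -2.59, and the inhibitory receptor gene *Btla* by -2.80 and -2.76. *Gcsam*, *Cxx1a*, *Ppt1*, *Rab7b* and *Mycl* were the other 5. The cDC1s were few, at 9 and 36 cells.

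Against mature dendritic cells, those with *Ccr7* and *Fscn1*, 479 of 2666 tested genes (18%) were at least 2-fold higher in the members in both libraries and 197 (7.39%) at least 2-fold lower. *Ccr2*, the receptor that draws monocytes and cDC2 precursors into tissue, stood at 329 and 271 CPM in members and 0 and 8.02 CPM in mature cells, at least 21.4-fold higher by the libraries labelled WT. *Clec10a* was at least 29.1-fold higher there, and *Naaa*, the gene of an enzyme that breaks down lipid ethanolamides, at least 30.6-fold. *Emilin2*, *Ifitm6*, *Bex6*, *Zfp36l2*, *Emp1*, *Ltb4r1* (the leukotriene B4 receptor) and *Cd300a* were also among the 10. The chemokine gene *Ccl22* stood at 2.42 and 26.9 CPM in members against 1751 and 1396 CPM in mature cells, and *Cd200* was lower by -6.74 and -6.83 on the log2 scale. *Cacnb3* was at least 74.8-fold lower in members labelled WT, where it had 0 UMIs. The tetraspanin gene *Cd63* and *Serpinb6b*, *Serpinb9*, *Tbc1d4*, *Anxa3*, *Nudt17* and *Gm13546* were lower too.

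Against *Ly6c2* monocytes, 165 of 5423 tested genes (3.04%) were at least 2-fold higher in the members in both libraries and 356 (6.56%) at least 2-fold lower. Class II presentation genes were among the leading ones: *H2-Oa*, a chain that tempers peptide loading, was higher by 5.43 and 4.68 on the log2 scale, and *H2-DMb2* by 4.59 and 4.24. *Kmo*, an enzyme of tryptophan breakdown by the kynurenine path, stood at 116 and 100 CPM in members against 3.35 and 4.34 CPM in monocytes. *Cd7*, better known in lymphocytes, stood at 322 and 259 CPM against 13.4 and 17.7 CPM, beside 121 and 192 CPM in T cells. *Ffar2*, a receptor for short-chain fatty acids, and *Clec10a*, *Ifitm1*, *Ccl17*, *Mgl2* and *Cd209d* were the rest, the last at least 123-fold higher by the libraries labelled WT. On the lower side, *Chil3*, a chitinase-like protein gene, stood at 2.42 and 13.4 CPM in members against 529 and 1298 CPM. *Thbs1* was lower by -5.38 and -5.09, *Spp1* (osteopontin) by -4.66 and -4.65, and *Irg1* and *Cmklr1* had 0 UMIs in members of both libraries. *Ccl24*, *C5ar1* and *Cd177* had 0 UMIs in members labelled WT.

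The members were not uniform. *Mgl2* was at 0 in 23 of 34 members labelled WT and 59 of 123 labelled KO, and reached at least 3 UMIs in 7 (20.6%, interval 8.70 to 37.9) and 51 (41.5%, 32.7 to 50.7). *Ly6c2*, a monocyte surface antigen, reached at least 3 UMIs in 11 (32.4%) and 23 (18.7%). Both together were found in 0 members labelled WT and 8 labelled KO. Cells in cycle, with at least 3 UMIs of *Mki67*, *Top2a*, *Birc5* and *Ube2c* together, numbered 4 (11.8%) and 15 (12.2%). Members with *Mgl2* were also deeper, with medians of 14640 and 14173 UMIs against 10373 and 9593 in members at 0.

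Members with at least 3 *Mgl2* UMIs were then set against members with none. These groups were chosen on the same counts, so that what follows is a description. In the library labelled KO, 15 of 2241 tested genes (0.669%) were at least 2-fold higher in the *Mgl2* group and 49 (2.19%) at least 2-fold lower. *Ear2*, an eosinophil-associated ribonuclease gene, stood at 189 against 16.3 CPM labelled KO, a log2 ratio of 3.47 (2.61 to 4.63), and at 80.8 against 0 CPM labelled WT, where 1 cell held every UMI. *Ccl17*, a chemokine that attracts CCR4+ T cells, was higher by 1.75 labelled KO and 4.47 labelled WT, though 44 of its 49 UMIs labelled WT came from 1 cell, as did 54 of 92 UMIs of the *Mgl2* group and 22 of 23 of the group without it labelled KO. *Clec4n* (Dectin-2) was higher by 1.43 and 1.02. The cycle genes *Birc5* (1.47 and 1.27) and *Stmn1* (1.24 and 4.19) had the same order in both libraries, but labelled WT all 22 *Birc5* UMIs and 36 of 37 *Stmn1* UMIs of the *Mgl2* group came from 1 cell. *Fabp5*, a fatty acid binding protein gene, had opposite orders, at 1.62 labelled KO and -1.20 labelled WT. Labelled KO, 101 of the 272 UMIs of the *Mgl2* group came from 1 cell. Labelled WT, 75 of the 123 UMIs of the group without *Mgl2* came from 1 cell.

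Members without *Mgl2* held more of several monocyte transcripts and, of the chemokines, more *Cxcl9* and *Cxcl10*, but less *Ccl17* and *Cxcl2* labelled KO. In the library labelled KO the interferon-inducible chemokine gene *Cxcl10* stood at 38.9 CPM with *Mgl2* and 417 CPM without (log2 -3.40), where 98 of its 256 UMIs came from 1 cell. It was found in 12 of 51 members with *Mgl2* and 12 of 59 without. *Cxcl9* stood at 45.9 and 233 CPM, and *Gbp2*, a guanylate-binding protein gene, at 59.8 and 234 CPM. *Lyz2* stood at 1206 and 4895 CPM, *Ly6c2* at 91.8 and 363 CPM, and *Plac8* at 630 and 2096 CPM. *Irf8* was lower with *Mgl2* by -1.90 and *Flt3* by -1.43 on the log2 scale. Only part of this order held in the library labelled WT: *Ly6c2* (0 and 222 UMIs), *Cxcl10* (-1.53) and *Plac8* (-1.90) kept it, while *Cxcl9* (-0.59), *Lyz2* (-0.24), *Irf8* (-0.06), *Gbp2* (-0.01) and *Flt3* (0.03) had intervals that spanned 0 with 7 and 23 members. Class II genes were higher with *Mgl2* in both libraries, *H2-Ab1* by 0.25 and 0.38, *H2-Aa* by 0.40 and 0.46 and *H2-DMb2* by 0.47 and 0.89 (KO and WT labels), all within 2-fold.

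**Figure D3:**
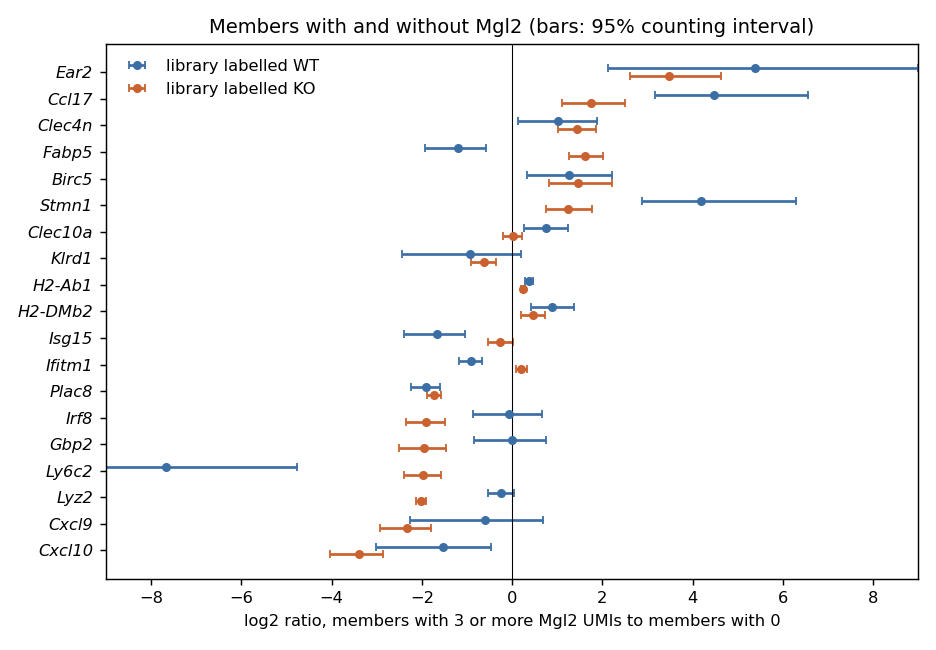
Log2 ratio of CPM in members with at least 3 *Mgl2* UMIs to members with 0 (horizontal axis) for 19 genes (vertical axis), with points for the libraries labelled WT and KO and bars for the 95% counting interval; bars that reach the axis end have no finite bound. *Ear2*, *Ccl17* and *Clec4n* lie right of 0 and *Plac8* and *Cxcl10* left of 0 in both libraries, whereas *Fabp5* lies on opposite sides. Labelled WT, 1 cell held 75 of the 123 *Fabp5* UMIs of the members at 0.

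Members with at least 3 *Ly6c2* UMIs were closer to monocytes. In the library labelled KO, 79 of 2241 tested genes (3.53%) were at least 2-fold higher in them than in members with 0 *Ly6c2*, and 55 (2.45%) at least 2-fold lower. *Lyz2* stood at 10971 against 780 CPM labelled KO and 2457 against 721 CPM labelled WT. *Csf1r*, the macrophage growth factor receptor, was higher by 1.70 and 1.97, *Plac8* by 1.78 and 1.25 and *Ccr2* by 0.80 and 1.25 on the log2 scale (KO and WT labels). The interferon response genes *Bst2* (1.32 and 1.33), *Irf7* (1.26 and 1.02) and *Isg15* (0.88 and 1.32) were higher with *Ly6c2* as well. *Cxcl9*, *Cxcl10* and *Gbp2* did not follow them. *Cxcl9* was lower by -2.85 and -1.63, while *Cxcl10* (-1.38 and 0.63) and *Gbp2* (-1.15 and 0.26) were lower labelled KO only. Class II genes were lower, *H2-Aa* by -0.85 and -0.98 and *H2-DMb2* by -1.31 and -2.43, as was *Il1b* by -2.05 and -2.87. *Ccl17* had 0 UMIs in the *Ly6c2* group of both libraries. Still, with *H2-Aa* at 7126 CPM labelled KO and *Ly6c2* at 989 CPM, these cells held genes of both kinds.

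The 19 cycling members carried the proliferation genes by their definition. With the defining genes included, 84 of 2239 tested genes (3.75%) were at least 2-fold higher in them and 111 (4.96%) at least 2-fold lower in the library labelled KO. *Hmgb2*, a chromatin protein gene, was higher by 3.63 and 3.64 on the log2 scale (KO and WT labels). *Ly6c2* was lower by -4.84 and -5.23, *Isg15* by -1.49 and -2.12 and *Cd7* by -1.69 and -3.66. Class II genes differed little and not in 1 direction: *H2-Ab1* was -0.27 and -0.11, *H2-Aa* -0.31 and -0.09, *Cd74* -0.21 and -0.12 and *H2-DMb2* 0.35 and 0.29. *Cxcl9* was in opposite order, at -3.91 labelled KO and 2.28 labelled WT, where 27 of 32 UMIs came from 1 cell.

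Between the libraries, 23 of 2243 tested genes (1.03%) were at least 2-fold higher in members labelled KO and 42 (1.87%) at least 2-fold lower. All 65 (2.9%) had separate counting intervals. The UMI minimum and the 2-fold limit favor such separation and the intervals leave out spread between cells, so it adds no support. Within 1.5-fold lay 1984 genes. The median log2 ratio of all tested genes was -0.06, and 57.2% of them were below 0. With the ratios set to a median of 0, or with ribosomal and mitochondrial UMIs left out of the totals, 32 were higher and 36 lower. Without the cell that held most UMIs of a gene in the library where it was higher, 19 were higher and 24 lower. Several of these genes differed alike in unrelated cells: *Snx20* was lower by -2.49 in members and by -2.04 to -2.66 in the 5 other classes, *Cap1* by -2.41 and -1.82 to -2.38, and *Apobec3* was higher by 2.30 and 1.85 to 2.64. These 3 thus differed alike in all 6 classes. *Jund* (-1.95), *Srsf2* (-1.69) and *Rtn4* (-1.89) were also among the 10 lowest, and all 3 were below 0 in the 5 other classes.

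**Figure D4:**
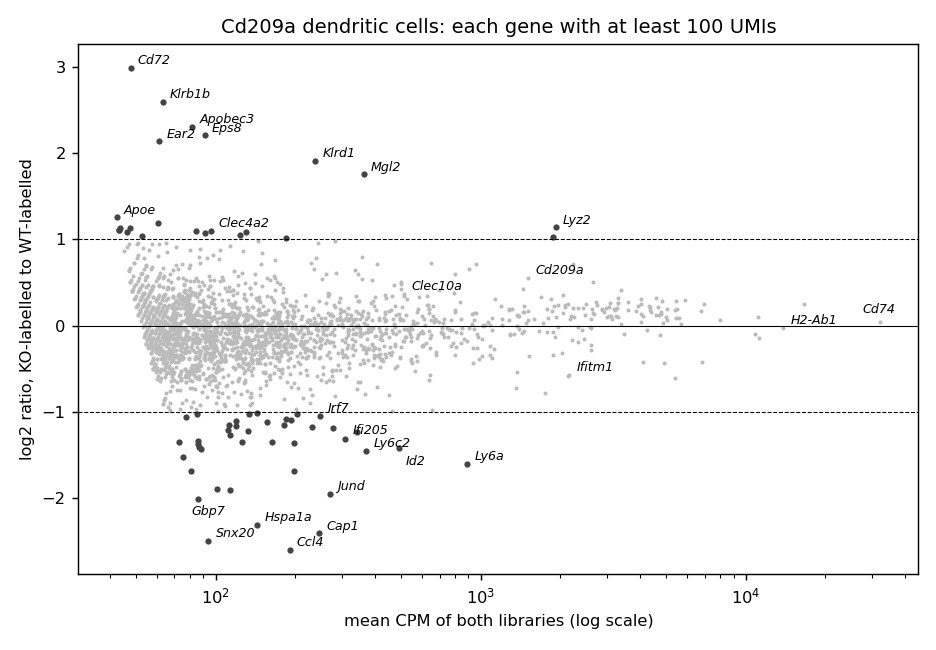
Each of 2243 genes in the members by its mean CPM over both libraries (horizontal axis, log scale) and its log2 ratio, KO-labelled to WT-labelled (vertical axis), with dashed lines at 2-fold and dark points for the 65 genes past them. *Klrd1*, *Mgl2* and *Lyz2* are the more abundant genes above the upper line, *Ly6a*, *Id2* and *Ly6c2* lie below the lower line, and *Cd74* and *H2-Ab1* lie at 0.04 and -0.02.

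Of 10 tested C-type lectins and uptake receptors, 2 were past 2-fold higher in members labelled KO and 0 lower, against 1.03% and 1.87% of all tested genes, with a median log2 ratio of 0.54 against -0.06 over all. The list holds *Cd209a*, which chose the members. Without it and the markers *Clec10a* and *Mgl2*, 1 of 7 was past 2-fold higher and the median was 0.53. *Mgl2* had 68 UMIs at 164 CPM labelled WT and 832 UMIs at 559 CPM labelled KO, a log2 ratio of 1.75 (1.41 to 2.14). At 8000 UMIs per cell it was found in 27.3% of 33 members labelled WT and 52.7% of 110 labelled KO, and in 0.870% of 345 and 0% of 150 T cells, where 0 allows up to 2.43%. The ratio of *Mgl2* was 0.69 (0.12 to 1.37) in members without lymphocyte UMIs and 0.82 when members were chosen after thinning every cell, both within 2-fold. *Clec4a2* (Dcir1), an inhibitory lectin gene, stood at 60.5 and 132 CPM (1.10), and at 0.97 in members without lymphocyte UMIs. *Clec4a1* (0.88), *Clec4b1* (0.73) and *Clec4n* (0.53) stood on the same side within 2-fold, as did *Clec10a* at 0.37 (0.15 to 0.61), which was 1.11 in members without lymphocyte UMIs. *Cd209a*, at 0.56 (0.42 to 0.70) and 1.72 without those members, chose the members and supports nothing here. The order of *Clec10a* turned to -0.05 once every cell was thinned to 1 depth and members were chosen anew, while *Ifitm1* was lower, at -0.57 (-0.67 to -0.46), and *H2-DMb2* at -0.17 spanned 0. Among the 15 and 56 members with at least 1 UMI of *Ly6c2*, *Mgl2* had 1 UMI labelled WT and 451 labelled KO. In the 19 and 67 members at 0 *Ly6c2* it had 67 and 381 UMIs, a ratio of 0.85 (0.48 to 1.25), within 2-fold.

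*Klrd1* (chromosome 6, 129591782 to 129598775), which encodes CD94, a partner of NKG2 receptors on natural killer cells, stood at 99.2 CPM labelled WT and 377 CPM labelled KO. Its log2 ratio was 1.91 (1.47 to 2.42), and 16 of 34 and 87 of 123 members held it. T cells held 393 CPM labelled WT, above the members, and 387 CPM labelled KO, near the members, a ratio of -0.02, and it was 0.57 in cDC1s, 0.56 in mature dendritic cells and 0.33 in monocytes. The ratio was 2.43 in members without lymphocyte UMIs, 1.73 in members without *Mgl2* and 2.46 in members with it. At 8000 UMIs per cell, 36.4% of members labelled WT and 69.1% of those labelled KO had a *Klrd1* UMI, beside 71.3% and 66.0% of T cells, so the share labelled WT was below that of T cells.

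*Cd72*, an inhibitory co-receptor gene of B cells also found in myeloid cells, had 4 UMIs labelled WT and 128 labelled KO, at 9.67 and 86.0 CPM, the highest ratio of all tested genes under the rule used (2.99, interval 1.76 to 5.05). It was 1.75 when members needed only 2 *Cd209a* UMIs, below *Eps8* at 2.42, and 2.68 at 5 UMIs, below *Klrb1b* at 3.03. Its shares at 8000 UMIs per T cell were 0.870% and 10.7%, and its T cell ratio was 4.37, so it was higher in T cells of the library labelled KO too. *Klrb1b*, a lectin-like receptor gene of natural killer cells, had 7 and 163 UMIs (2.60). Its ratio was 2.51 in cDC1s, from 2 and 54 UMIs, 1.93 in T cells, 1.86 in macrophages, 0.92 in monocytes and -0.35 in mature dendritic cells. *Eps8*, an actin-capping adaptor gene, stood at 31.4 and 150 CPM (2.21). Its ratio was 2.51 in monocytes, 1.70 in cDC1s, 1.44 in macrophages, 1.12 in T cells and -1.57 in mature dendritic cells. *Ear2* stood at 21.8 and 101 CPM (2.14), but its 9 UMIs labelled WT came from 1 cell and without the lymphocyte-UMI members its ratio was -0.05. *Apoe* (24.2 and 60.4 CPM, 1.26, and 0.37 without members holding at least 3 *Ly6c2* UMIs) and *Mrpl15* (36.3 and 85.3 CPM, 1.19, and 0.77 with members chosen after thinning) complete the leading 10 with *Apobec3*, *Klrd1*, *Mgl2* and *Lyz2*.

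Interferon response genes were lower in members labelled KO as a group. All 19 tested genes of a list of 31 had ratios below 0, against 57.2% of all tested genes, with a median of -0.61, and 4 were past 2-fold lower, against 1.87% of all tested genes, and 0 higher. *Ly6a* (Sca-1) stood at 1337 CPM labelled WT and 441 CPM labelled KO (-1.60, -1.77 to -1.44). It was -2.30 in members without *Mgl2* and -0.99 in members with it, the latter within 2-fold. *Gbp7*, a guanylate-binding protein gene, stood at 138 and 34.3 CPM (-2.01), *Ifi205*, a DNA sensor family gene, at 440 and 177 CPM (-1.31), and *Irf7*, a regulator of type I interferon transcription, at 334 and 162 CPM (-1.05). With members chosen after thinning every cell, *Irf7* was -0.76 and *Ifi205* -0.80, and *Irf7* was -0.70 in members with at least 5 *Cd209a* UMIs. *Irf7* was -1.32 in members without *Mgl2* and -0.48 (-0.99 to 0.10) in members with it. Other members of the list stayed within 2-fold. *Ifitm3* stood at 5631 and 4164 CPM (-0.44), *Ifi27l2a* at 1691 and 1026 CPM (-0.72), *Isg15*, the ubiquitin-like modifier, at 503 and 309 CPM (-0.71, -0.94 to -0.46), and *Bst2* (tetherin) at 573 and 329 CPM (-0.80), though at -1.63 (-1.96 to -1.28) in members without lymphocyte UMIs.

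Summed over the list, members held 12642 CPM labelled WT and 8003 CPM labelled KO, a log2 ratio of -0.66 (-0.71 to -0.61). Per member the summed level ran from 2128 to 32751 CPM with a median of 11171 labelled WT, and from 1864 to 31430 CPM with a median of 7122 labelled KO. The ranges thus overlapped almost whole while the medians differed. The list had medians of -0.74 in cDC1s, -0.39 in mature dendritic cells, -0.43 in monocytes and -0.61 in macrophages, and 0.03 in T cells, so it was not particular to the members. It stood at -0.77 in members without lymphocyte UMIs, -0.71 in members without *Mgl2*, -0.62 in members with it, and -0.46 and -0.99 in members without and with *Ly6c2* UMIs.

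Promoters are shown for 4 of these genes because these genes differed in the same direction. They are the RefSeq windows of build GRCm38.p6 from 250 bases before to 50 after the start of transcription, with capitals for each match to the interferon-stimulated response element (ISRE), searched on both strands as GAAA, any 2 bases, and GAAA, with overlapping matches counted. Matches occur in 943 of 27025 promoters of that length (3.49%). Of the 14 tested interferon response genes with a promoter in the table, 10 held at least 1. *Isg15* (chr4:156200769-156201068, minus strand) held 3 overlapping matches from 78, 72 and 66 bases before the start, *Bst2* (chr8:71537423-71537722, minus strand) 2 from 130 and 124 bases before it, *Gbp7* (chr3:142530086-142530385, plus strand) 1 at 53 bases before it on the opposite strand, and *Ifi205* (chr1:174031706-174032005, minus strand) 1 at 134 bases before it and 1 at 23 bases after it on the opposite strand. A match is a description of letters only. The window of *Irf7* held none, and *Ly6a* is named only.
Isg15: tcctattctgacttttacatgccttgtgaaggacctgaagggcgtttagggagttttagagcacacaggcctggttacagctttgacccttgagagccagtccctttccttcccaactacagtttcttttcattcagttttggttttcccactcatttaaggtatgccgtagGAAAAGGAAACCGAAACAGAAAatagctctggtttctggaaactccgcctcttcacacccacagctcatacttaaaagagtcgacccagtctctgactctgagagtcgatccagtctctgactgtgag
Bst2: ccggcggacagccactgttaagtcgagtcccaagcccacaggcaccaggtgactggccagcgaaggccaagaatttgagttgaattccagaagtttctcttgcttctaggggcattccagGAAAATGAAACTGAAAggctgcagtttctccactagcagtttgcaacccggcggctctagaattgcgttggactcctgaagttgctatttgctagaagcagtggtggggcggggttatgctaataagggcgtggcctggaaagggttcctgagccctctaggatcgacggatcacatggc
Gbp7: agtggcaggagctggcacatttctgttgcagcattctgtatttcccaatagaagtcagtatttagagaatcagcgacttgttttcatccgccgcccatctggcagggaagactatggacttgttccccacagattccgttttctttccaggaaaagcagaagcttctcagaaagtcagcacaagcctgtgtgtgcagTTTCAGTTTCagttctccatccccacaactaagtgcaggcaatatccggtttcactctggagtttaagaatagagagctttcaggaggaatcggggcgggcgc
Ifi205: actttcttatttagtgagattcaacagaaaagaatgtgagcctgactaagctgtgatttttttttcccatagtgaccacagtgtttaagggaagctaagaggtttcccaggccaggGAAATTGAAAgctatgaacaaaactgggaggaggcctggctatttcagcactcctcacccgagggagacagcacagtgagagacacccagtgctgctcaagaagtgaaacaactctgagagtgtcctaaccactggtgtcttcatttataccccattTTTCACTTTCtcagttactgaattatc

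Presentation genes divided by MHC class. All 11 tested MHC class I presentation genes were below 0, against 57.2% of all tested genes, with a median of -0.40 and 0 past 2-fold lower, against 1.87% of all. The list's median was -0.38 in cDC1s, 0.03 in mature dendritic cells, -0.07 in monocytes, -0.19 in macrophages and -0.07 in T cells. *B2m*, the light chain of class I, stood at 4675 CPM labelled WT and 3489 CPM labelled KO (-0.42), the heavy chain genes *H2-D1* at 2868 and 2371 CPM (-0.28) and *H2-K1* at 1113 and 852 CPM (-0.39), and *Psmb9*, an immunoproteasome subunit gene, at -0.79. The 10 tested class II genes had a median of 0.01 with 0 past 2-fold, against 2.9% of all tested genes in either direction. *Cd74* was at 0.04, *H2-Aa* at 0.10, *H2-Eb1* at 0.07 and *H2-Ab1* at -0.02. *H2-Ob*, whose product restrains class II loading, was the lowest at -0.89. Class II levels were thus near equal between the libraries and class I levels slightly lower, and the class I order held in members without *Mgl2* (-0.37) and with it (-0.41). The promoter of *H2-Aa* is shown as the example of a class II gene, with capitals for the Y box CTGATTGG, a binding motif of NF-Y (either strand), which 1166 of 27025 promoters hold (4.31%) and which stands 51 bases before the start. Of the 7 tested class II genes whose promoter was listed, 3 held it, and the window is chr17:34287774-34288073 on the minus strand.
H2-Aa: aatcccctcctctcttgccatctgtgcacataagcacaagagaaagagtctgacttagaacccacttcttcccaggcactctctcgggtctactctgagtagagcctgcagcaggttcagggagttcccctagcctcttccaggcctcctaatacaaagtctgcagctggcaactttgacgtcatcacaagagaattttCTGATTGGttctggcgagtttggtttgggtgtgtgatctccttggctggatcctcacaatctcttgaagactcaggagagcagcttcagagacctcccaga

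**Figure D5:**
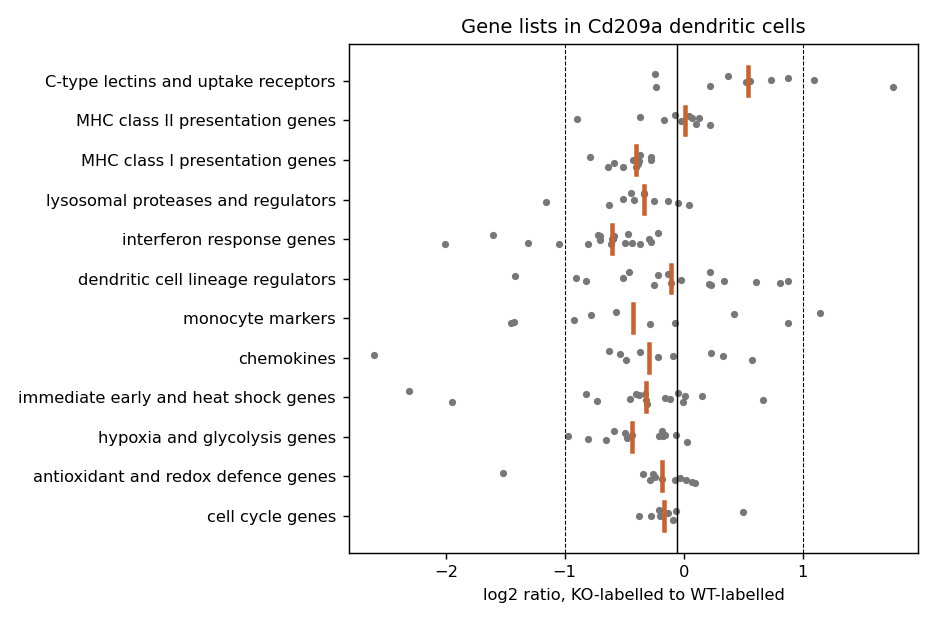
Log2 ratio, KO-labelled to WT-labelled (horizontal axis), of each tested gene in 12 gene lists (vertical axis), with a point per gene, an orange bar at the list's median, a solid line at -0.06 (the median of all tested genes) and dashed lines at 2-fold. Every interferon response and MHC class I gene lies left of 0, the class II genes lie around 0, and the lectins lie mostly right of it.

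Lysosomal genes, which digest antigen, were also mostly lower in members labelled KO, 10 of 11 below 0, against 57.2% of all tested genes, with a median of -0.34, beside -0.22 in cDC1s, -0.09 in mature dendritic cells, -0.15 in monocytes, -0.16 in macrophages and -0.29 in T cells. Of these 11, 1 was past 2-fold lower, against 1.87% of all tested genes. This was *Lamp1*, a lysosomal membrane glycoprotein gene, at 249 and 112 CPM (-1.15). It was -0.99 in members with at least 5 *Cd209a* UMIs and -0.85 in members without *Mgl2*. Monocytes held *Lamp1* at 849 and 415 CPM and T cells at 83.5 and 43.2 CPM, so the order was not particular to the members. The protease inhibitor gene *Cst3*, abundant in dendritic cells, stood at 7831 and 5847 CPM (-0.42), and the class II processing protease gene *Ctss* at 2090 and 1655 CPM (-0.34). Of 13 glycolysis and hypoxia genes 12 were below 0, and 0 were past 2-fold, against 2.9% of all tested genes in either direction. Their median was -0.44, beside -0.04 in cDC1s, -0.40 in mature dendritic cells, -0.52 in monocytes, -0.17 in macrophages and -0.52 in T cells. *Ldha* stood at 1071 and 792 CPM (-0.44), whereas *Gapdh* was at 0.03. Among 11 antioxidant genes, 1 was past 2-fold lower, against 1.87% of all tested genes. This was *Hmox1* (heme oxygenase), at 111 and 39.0 CPM (-1.52), beside 1715 and 444 CPM in monocytes. But 56.5% of its UMIs labelled WT came from 1 cell, without which it was -0.34. *Hmox1* was -2.82 in members without lymphocyte UMIs, where 10 members labelled WT, with that cell among them, held 31 UMIs.

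Monocyte genes gave a divided picture. Of 10 tested, *Lyz2* was past 2-fold higher in members labelled KO, at 1197 and 2646 CPM (1.14), beside 0.48 to 1.35 in the 5 other classes, and *Ly6c2* was among 2 past 2-fold lower, at 542 and 198 CPM (-1.45), against 1.03% higher and 1.87% lower of all tested genes, with a median of -0.43. In the 10 members labelled WT and 61 labelled KO without lymphocyte UMIs the median of this list was 0.55 and the ratio of *Ly6c2* was 0.54 (-0.17 to 1.42). *Ly6c2* is also a T cell transcript, at 580 and 1052 CPM in T cells. The part of lymphocyte RNA in the order of *Ly6c2* and of the list was not tested. The ratio of *Lyz2* was 1.59 without those members and 0.96 without its top cell labelled KO. It was 0.34 when members needed only 2 *Cd209a* UMIs, and in members without *Ly6c2* UMIs it was 0.11 (-0.13 to 0.36).

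Among 17 tested regulators of dendritic cell development, with a median of -0.11, 1 was past 2-fold lower, against 1.87% of all tested genes. This was *Id2*, a repressor needed for cDC1 development and abundant in lymphocytes, at 716 and 267 CPM (-1.42). Monocytes held it at 946 and 325 CPM and T cells at 746 and 540 CPM, so the order was not particular to the members. In members without lymphocyte UMIs *Id2* stood at -1.30. It was -0.89 with members chosen after thinning every cell and -0.87 in members without *Mgl2*. *Klf4* (-0.82) and *Csf1r* (0.88) stayed within 2-fold. Among 9 general dendritic cell genes, 0 were past 2-fold, with *Flt3* at -0.90. The 15 tested cDC2 markers had a median of 0.15 with *Klrd1*, *Mgl2* and *Clec4a2* past 2-fold higher, against 1.03% of all tested genes, the last 2 within 2-fold without lymphocyte UMIs, and that list holds the genes of the rule. Of 7 costimulatory and coinhibitory genes 0 were past 2-fold as well, and with 2.9% of all tested genes past it in either direction these counts of 0 are no result about the lists, with *Cd40* at -0.89, *Vsir* (VISTA) at -0.83 and *Cd52* at 0.71.

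Few secreted factors passed the minimum. Of 3 cytokine genes, *Il1b* stood at 225 and 347 CPM (0.62), *Tgfb1* at 0.61 and *Il1r2*, a decoy receptor gene, at 0.31. Of 10 chemokine genes, 1 was past 2-fold lower, against 1.87% of all tested genes. This was *Ccl4*, the lowest of all tested genes, at 327 and 53.7 CPM (-2.60). But 105 of its 135 UMIs labelled WT came from 1 cell, and it was -0.75 without the top cell of each library. *Hspa1a* (-2.31), a heat shock gene, had 64 of 99 UMIs labelled WT in 1 cell and 47 of 72 labelled KO in 1 cell, and *Hist1h2ap* (-1.69, and 3.40 without lymphocyte UMIs) had 48 of 51 UMIs labelled WT in 1 cell. The *Ccl4* and *Hist1h2ap* differences rest on single cells. *Hspa1a* was -2.33 without the top cell of each library and -0.82 without that of the library labelled WT alone. In members without lymphocyte UMIs, 10 labelled WT and 61 labelled KO, *Ccl4* was -4.42 and *Hspa1a* -6.13. Those 10 held 120 and 76 UMIs of these genes and included the top cell labelled WT of each. These ratios thus rest on the same single cells. *Emp1*, a membrane protein gene, stood at 179 and 47.7 CPM (-1.91), and at -3.17 in members without lymphocyte UMIs, from 32 and 21 UMIs. Immediate early and heat shock genes had a median of -0.32 over 17, cell cycle genes -0.17 over 8, JAK and STAT path genes -0.10 over 9 with *Ifngr1*, an interferon gamma receptor chain gene, at 0.73, and sterol genes -0.24 over 13.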

How the data were processed

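Single-cell RNA was measured in 2 libraries, 1 per genotype. Per the labels the reads were processed with Cell Ranger on mm10, and the deposited table, labelled as raw counts, holds the natural log of 1 plus each cell's UMIs scaled to 10000, as the values show. UMIs were recovered from it, whole within 0.01, in place of the counts that had been assumed. The authors' stated filters were at least 300 UMIs and 100 genes and at most 5% mitochondrial UMIs per cell. No column of per-sample values was left unused (0).

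Members and 5 comparison classes were picked by UMI thresholds. UMIs were summed per class and library, CPM was given with exact Poisson intervals, and log2 ratios, with 0.5 UMIs added, with conditional binomial intervals. Shares have Clopper-Pearson intervals. A gene was tested when both libraries together held at least 100 of its UMIs, and was set against 2-fold, without p-values. Background shares came from T cells thinned to 8000 UMIs, which kept 345 of 763 and 150 of 914. A floor of 3 UMIs per library stood for a count of 0. Named genes were those of the rule and its markers, *Maoa*, list members past 2-fold with separate intervals, 2 to 4 abundant members per list, and the 10 leading genes in each direction of each comparison. Genes named outside this rule, and the groups by *Mgl2*, *Ly6c2* and cycle genes, were chosen after their values were seen. Results for some genes are not reported here. The members and lists were chosen with earlier results of these data known. Python 3.11.15, numpy 2.4.6, scipy 1.17.1 and matplotlib 3.10.9 were used, and the counting steps were tested on simulated data. Gene positions are those of GENCODE on GRCm38.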

Additional observations from a re-analysis of the deposited data

Results flagged for a closer look

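*Hist1h2ap*, a histone gene, had a log2 ratio of 2.80 (1.68 to 4.58), KO-labelled to WT-labelled, in cDC1s, from 5 and 146 UMIs, and of -1.69 in the *Cd209a* dendritic cells, where 48 of 51 UMIs labelled WT came from 1 cell. It stood out because the order of the libraries was opposite in these classes, and the difference between the classes was not tested.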

How the results depend on the processing

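No paired analysis was possible because each genotype was 1 library. Depth limits what can be said of genes under 100 UMIs. Without members holding lymphocyte UMIs the shares were 0.418% (WT label) and 2.32% (KO label), against 1.42% and 4.68%. The 23 genes higher and 42 lower became 139 and 207 with a minimum of 30 UMIs and 5 and 10 with 300. With 5 UMIs added 9 were higher, in members without *Mgl2* 13 were higher, and without the top cell 24 were lower. With a minimum of 300 UMIs, 80 genes were higher and 24 lower against cDC1s, 169 and 67 against mature dendritic cells, and 66 and 220 against monocytes.

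Without members holding lymphocyte UMIs, list medians were 0.66 (lectins), -0.55 (MHC class I), 0.051 (class II), -0.77 (interferon), 0.55 (monocyte, which turned from -0.43), -0.25 (glycolysis) and -0.41 (lysosomal). Without *Mgl2* members they were 0.35 (lectins), -0.26 (immediate early), -0.71 (interferon), -0.32 (monocyte), -0.35 (glycolysis) and -0.42 (lysosomal). After thinning they were -0.55 (class I), 0.049 (class II), -0.51 (interferon), -0.55 (monocyte), -0.58 (glycolysis) and -0.26 (lysosomal). With a minimum of 30 UMIs they were 0.37 (lectins), -0.022 (class II), -0.66 (interferon) and -0.071 (monocyte), and as mean CPM over cells -0.35 (class I), 0.090 (class II) and -0.43 (interferon).

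Of the named genes' values, 446 stayed within the counting interval, 58 moved and 8 changed sign. Without lymphocyte UMIs these were *Hist1h2ap* (3.40), *Ear2* (-0.054) and *Ly6c2* (0.54). After thinning every cell they were *Hist1h2ap* (2.41) and *Clec10a* (-0.047). *Ly6c2* was 0.62 without members holding at least 3 of its UMIs, *Hist1h2ap* was 2.19 without its top cell, and *Mgl2* was -1.33 in members without it, by construction. The other causes were not tested.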
